A study of Homo sapiens with 26 samples.

Results

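The sites described here are binding sites of the estrogen receptor (ER) and of the progesterone receptor (PR) listed within 200 kb of 3 genes of proliferation and survival, MYC, CCND1 and BCL2. They were chosen by position alone: a site counted as a member if it overlapped the hg19 span of a gene or the 200 kb on either side. This gave 161 of the 87206 sites in 10 lists. MYC (chromosome 8, 128748315 to 128753680) held 105, CCND1 (chromosome 11, 69455873 to 69469242) held 48, and BCL2 (chromosome 18, 60790579 to 60986613) held 8.

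The sites come from ChIP-seq, the sequencing of DNA recovered with an antibody to a chromatin protein, in T47D, an established human breast cancer line with both receptors, and in T47D cells deficient in PR. All cells were deprived of steroids and then exposed for 45 min to vehicle or to hormone at 10 nM: the estrogen estradiol (E2), the progestin R5020, or each of them together. T47D cells gave 7 lists: ER and PR after E2, R5020 or E2+R5020, and after E2+R5020, a reChIP in which chromatin recovered with the ER antibody was recovered again with the PR antibody. PR-deficient cells gave 3 ER lists, 1 for each hormone treatment. The means by which PR was lost, and whether that line is 1 clone, are not given in the sources used here. Other differences between the lines cannot be told apart from the loss of PR. No list of a vehicle library was used, and per the labels these libraries were subtracted as background. With 1 library behind each list there is no replicate error, no test between conditions was made, and differences between lists are descriptions of these libraries. Within a line, lists of the same antibody had the same vehicle library subtracted.

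ER and PR are nuclear receptors that bind DNA and recruit coregulators when their steroid is present, often at enhancers far from the genes they act on. MYC encodes a transcription factor that drives cell growth and division. CCND1 encodes cyclin D1, which activates the kinases that carry cells towards DNA synthesis. BCL2 encodes a mitochondrial membrane protein that blocks apoptosis. Estrogen is known to raise the expression of all of them in ER-positive breast cancer cells. Expression was not measured in these libraries, and a site near a gene does not show that it acts on it.

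The lists ran from 4014 sites (T47D ER, E2) to 19220 (T47D ER, E2+R5020). Their median site was 149 to 292 bp wide, except in the T47D ER list of E2 (1171 bp) and the PR-deficient lists of E2 (1076 bp) and E2+R5020 (1329 bp). Read depth is unknown. Each site has a score from the authors, whose unit the sources used here do not give, and which rises in even steps of a different size in each list. Sites are therefore placed by their rank within their own list, where 1 is the highest score and ties share the better rank. In 5 lists, over 60% of all sites lay within 1 step of the lowest score kept: the 3 PR lists and the R5020 ER lists of both lines.

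The 3 loci differed widely in how many sites they held. MYC had 259 sites per Mb over the 10 lists, against 34 on the whole of chromosome 8 and 28.2 over all chromosomes. CCND1 had 116 per Mb, against 56.3 on chromosome 11. BCL2 had 13.4 per Mb, against 10.3 on chromosome 18. Relative to all chromosomes, MYC was therefore at 9.19 times, CCND1 at 4.12 times and BCL2 at 0.476 times the mean density. Relative to their own chromosome they were at 7.61, 2.06 and 1.3 times. Without the 5 lists rich in lowest-scoring sites, MYC held 106 sites per Mb, CCND1 55.6 and BCL2 11.7.

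**Figure D1:**
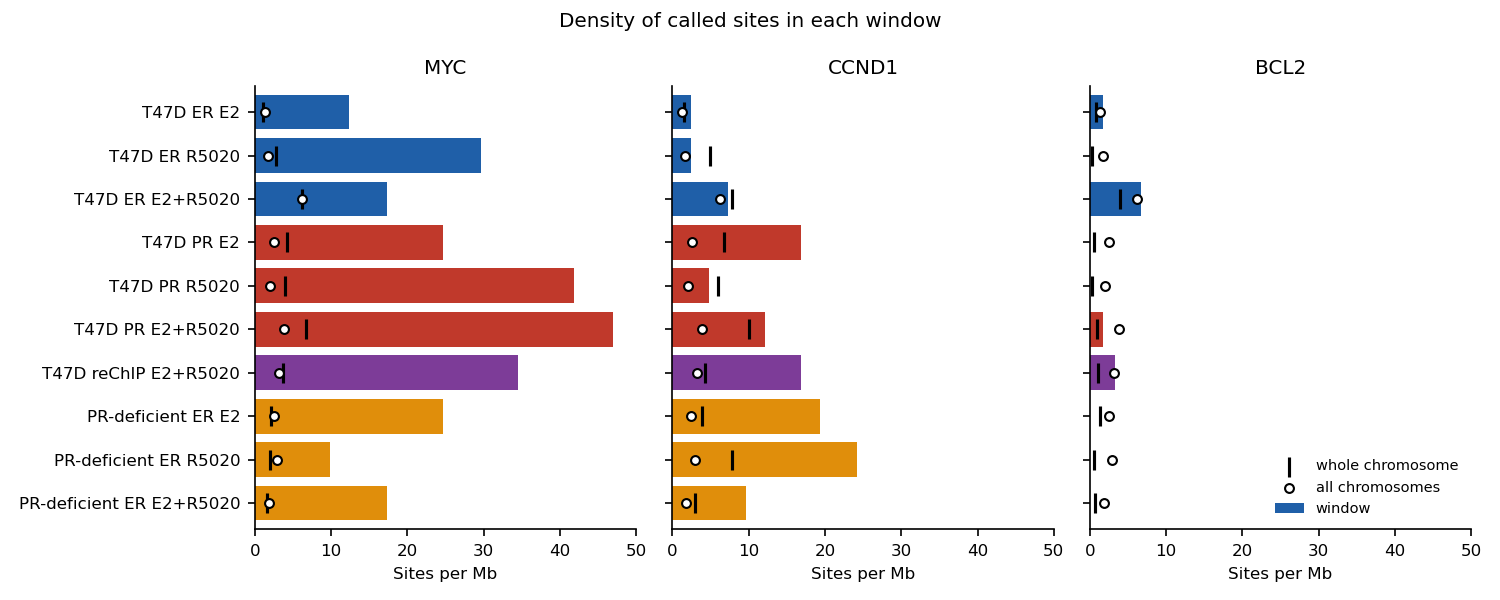
Sites per Mb (x axis, linear) in the MYC, CCND1 and BCL2 windows for each of the 10 lists (y axis, 1 library each). Bars give the window, vertical ticks the whole chromosome and open circles all chromosomes; every MYC bar passes both references, while no BCL2 bar reaches 10 sites per Mb.

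All 10 lists held MYC sites. The share of windows of the MYC width, laid end to end along every chromosome, that held at least 1 site is the background for this. It was 26.8% for T47D ER with E2, 24.2% with R5020 and 73.7% with E2+R5020. For PR it was 36.8% with E2, 28.3% with R5020 and 41% with E2+R5020, and for the reChIP 39.1%. In PR-deficient cells it was 37.5% for E2, 32% for R5020 and 31.1% for E2+R5020. The CCND1 window has nearly the same width, and all 10 lists held a site there too.

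PR gave the most MYC sites. The PR list of E2+R5020 held 19, or 0.16% of its sites (exact Clopper-Pearson 95% interval 0.0961 to 0.249, counting error over sites only). The PR list of R5020 held 17 (0.267%, 0.156 to 0.428) and that of E2 held 10 (0.126%, 0.0603 to 0.231). These densities were 12.2, 20.4 and 9.59 times those of the same lists over all chromosomes. Beside the same lists on chromosome 8 they were 6.98, 10.7 and 5.91 times. The 3 intervals overlap. Many of these sites were weak: with the lowest score kept raised by 1 step, 12 remained with E2+R5020, 13 with R5020 and 3 with E2. The whole lists lost sites as well. The same rise left 7411 of all 11908 sites with E2+R5020, 5527 of 6358 with R5020 and 3301 of 7961 with E2.

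For ER in T47D cells, R5020 gave 12 MYC sites (0.225%, 0.116 to 0.392), E2 gave 5 (0.125%, 0.0405 to 0.29) and both hormones 7 (0.0364%, 0.0146 to 0.075). The list of E2+R5020 was the longest of all, so its 7 sites were 2.78 times its mean density over all chromosomes. The values for E2 and R5020 were 9.51 and 17.2 times. Beside the same lists on chromosome 8 the values were 2.81 times for E2+R5020, 11.7 for E2 and 10.9 for R5020. The order of E2 and R5020 thus depended on the reference. After the 1-step rise in score, which left 2867 of all 5338 R5020 sites, R5020 kept 7 of its 12 MYC sites. The counts with E2 and with E2+R5020 stayed at 5 and 7. R5020 then no longer gave more sites than both hormones, while E2 still gave the fewest. Among the higher-scoring 50% of each list R5020 gave 2 sites and each of the other treatments 4. Scores tied at that cut were split by order in the list. MYC sites left out in this way had rank 1560 with R5020, 1962 with E2 and 9503 with E2+R5020. These counts therefore do not rank the treatments.

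In PR-deficient cells the ER lists held 10 MYC sites with E2, 4 with R5020 and 7 with E2+R5020. Their densities were 9.86, 3.34 and 9.44 times the list means over all chromosomes, and 11.6, 5.07 and 11 times those on chromosome 8. The reChIP list held 14, at 10.8 times its mean over all chromosomes and 9.44 times that on chromosome 8. Only 1 R5020 site of PR-deficient cells was left with the lowest score raised by 1 step, which left 4377 of the 9141 sites of that list.

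The MYC sites were not spread evenly. Downstream of the gene lay 89 of the 105 (84.8%), against 11 upstream and 5 within the gene span, and none covered the transcription start. Sites centred 50 to 200 kb downstream numbered 85. The next gene on that side, by its order in the RefSeq annotation, is PVT1, a long noncoding RNA gene often co-amplified with MYC in cancer. In 100-kb bins over 3 Mb on either side, the 10 lists together had a median of 3.5 sites per bin. The bins from 0 to 100 kb and from 100 to 200 kb downstream held 40 and 53, and the bins from 0 to 100 kb and from 100 to 200 kb upstream held 5 and 6. The 53 sites came from all 10 lists, with 23 of PR, 12 of T47D ER, 10 of the reChIP and 8 of PR-deficient ER.

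**Figure D2:**
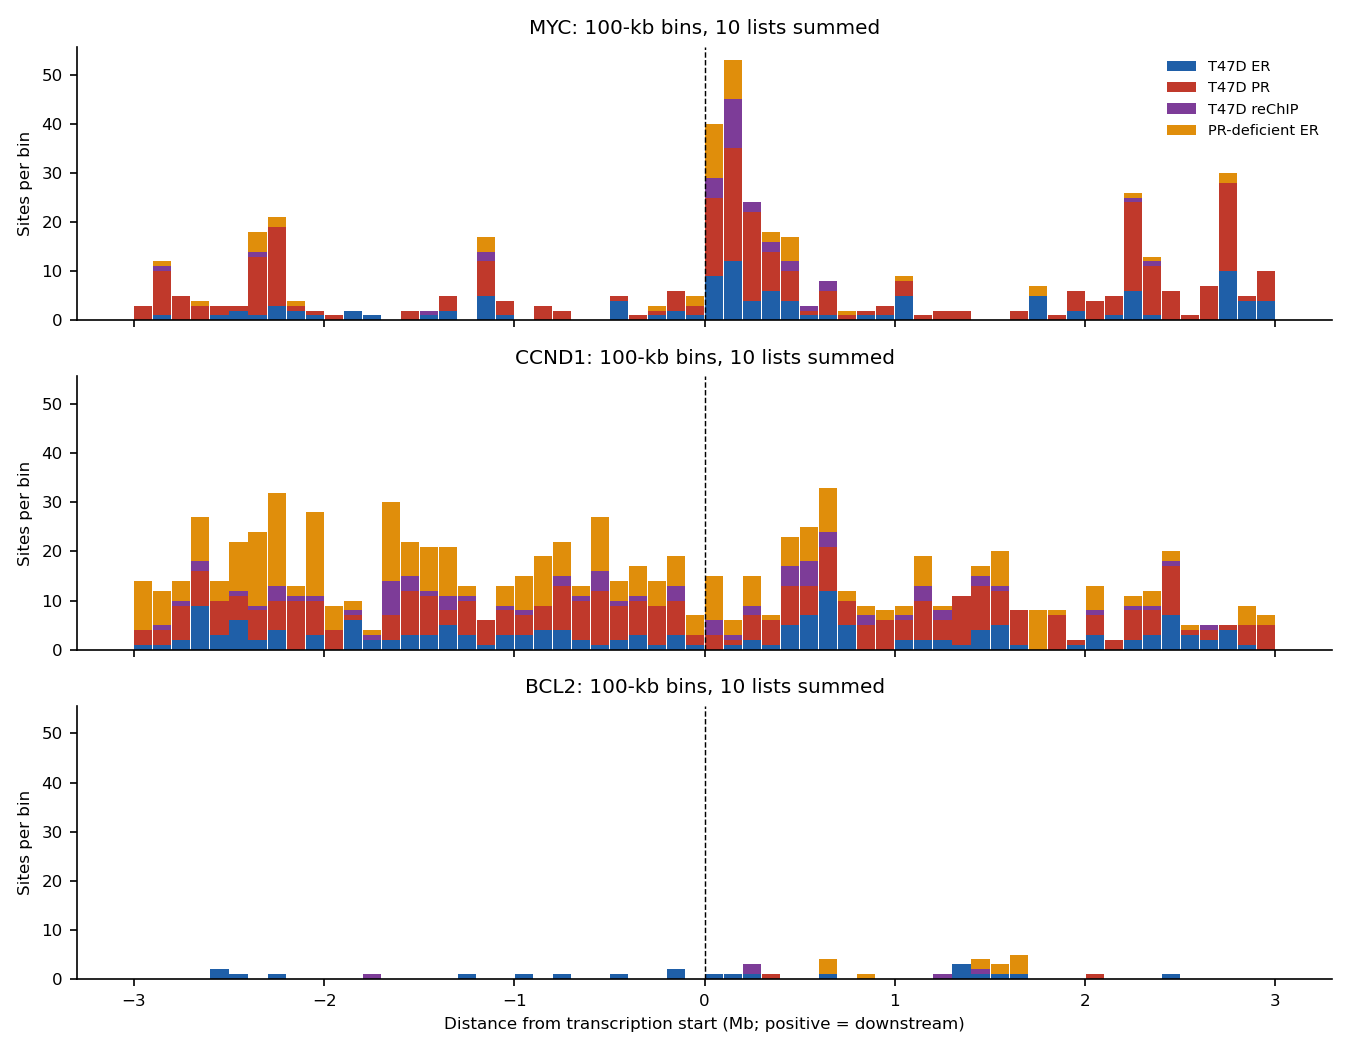
Called sites per 100-kb bin (y axis) against distance from the transcription start in Mb (x axis, positive downstream, dashed line at the start), summed over 10 lists and coloured by kind of list. MYC shows a block with 53 sites in its highest bin, CCND1 sites in every bin (2 to 33, median 13), and BCL2 a stretch with 38 of 60 bins empty.

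Overlapping sites of any list were joined into regions, 53 at MYC. Of these, 17 (32.1%) lay in 2 or more lists, 12 (22.6%) in 3 or more and 5 (9.43%) in 5 or more. Over all 64490 regions of the series, 19.6% lay in 2 or more lists, 7.95% in 3 or more and 1.18% in 5 or more. A wide site can join several narrow ones, so a shared region does not mean that all of its sites overlap each other.

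**Figure D3:**
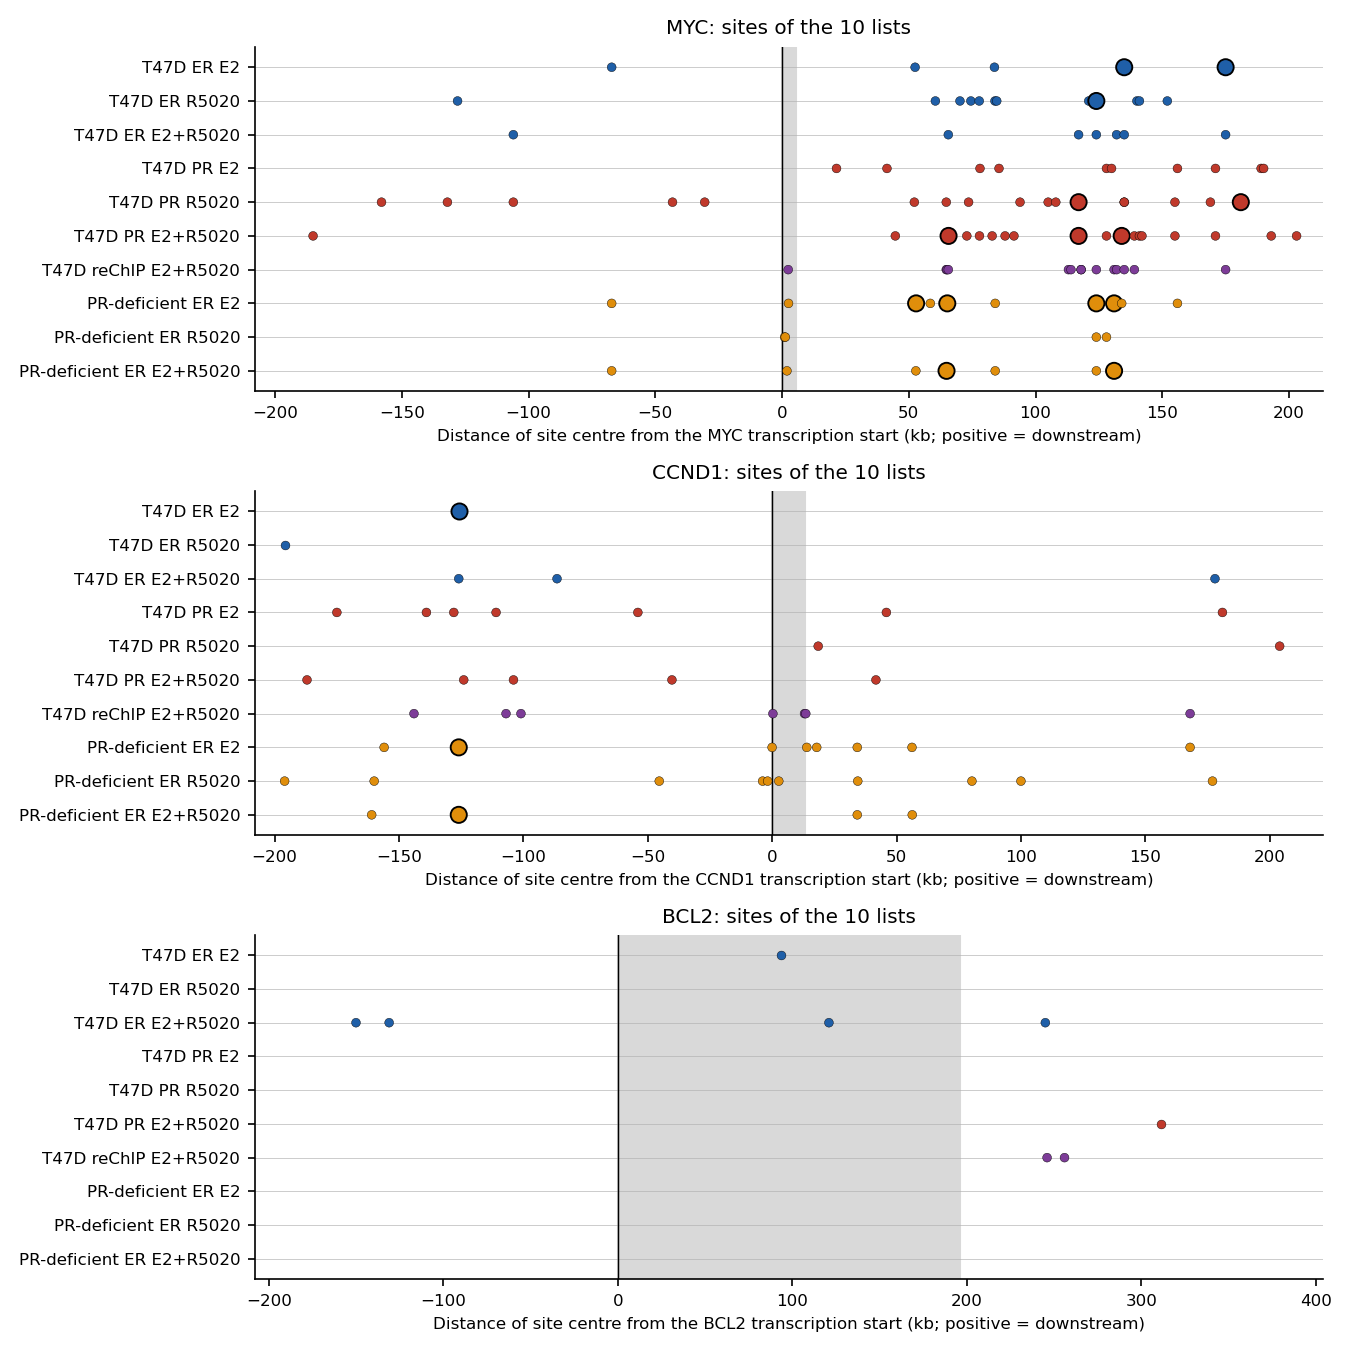
Each point is 1 called site, placed by the distance of its centre from the transcription start (x axis, kb, positive downstream) and by list (y axis); the grey band is the gene and large points are sites within the top 10% of their list by score. At MYC 89 of 105 sites lie downstream of the gene, at CCND1 a column of 4 sites stands 126 kb upstream, and at BCL2 6 lists are empty.

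Upstream of MYC, 1 region was shared. It lay at 128680585 to 128681737, 67.2 kb before the start, and was an ER region of estrogen: T47D with E2 (rank 1962 of 4014), PR-deficient with E2 (rank 2023 of 7742) and PR-deficient with E2+R5020 (rank 2638 of 5663). No list of PR, of the reChIP or of R5020 alone held it, nor did T47D ER with both hormones.

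Within the MYC gene, the shared region at 128749119 to 128751414, centred 1.95 kb after the start, held sites of all 3 PR-deficient ER lists and of the reChIP. No T47D list of ER alone or PR alone held a site in the gene. The PR-deficient sites there were weak, at rank 6398 of 7742 with E2 and 4152 of 5663 with E2+R5020, and the 2 sites of R5020 had the lowest score kept. The reChIP site ranked 2803 of 9861. The site nearest the start, centred 1.02 kb after it, was among those of R5020.

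At 52.5 kb downstream (128799857 to 128801823), ER was listed in both lines with E2 (rank 1541 in T47D and 595 in PR-deficient cells) and in PR-deficient cells with E2+R5020 (rank 1951). A PR site of R5020 (rank 616 of 6358) overlapped them.

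The region 65.2 kb downstream (128812206 to 128814799) held 9 sites of 6 lists. It had the best-ranked MYC site of PR-deficient cells with E2 (rank 174 of 7742, score 299.94) and with E2+R5020 (rank 139 of 5663, score 216.74). In T47D cells it was listed only where R5020 was given: PR with E2+R5020 (ranks 350 and 2562 of 11908), PR with R5020 (rank 2428), ER with E2+R5020 (rank 6521 of 19220) and 3 reChIP sites (best rank 2803). The T47D ER list of E2 had no site there, so a place that ranked high with E2 in PR-deficient cells was not called with E2 in T47D cells. Vehicle libraries were subtracted, so this does not show that ER was absent there in T47D cells.

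The regions around 80 kb downstream joined weaker sites. The one at 77.9 kb (128825922 to 128826502) held ER with R5020 and PR with E2 at the lowest score kept, and PR with E2+R5020 at rank 2562. The wide region at 83.8 kb (128829851 to 128834285) held 6 lists: ER with E2 in T47D (rank 929) and in PR-deficient cells (rank 1709), PR-deficient ER with E2+R5020 (rank 1951), 2 sites of T47D ER with R5020, and PR sites of E2 and of E2+R5020.

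With R5020, alone or with E2, PR had its best-ranked MYC site 117 kb downstream, at 128864695 to 128865582. The site ranked 86 of 6358 with R5020 (score 41.28) and 240 of 11908 with E2+R5020 (score 44.06). ER with E2+R5020 was listed there at rank 9503 of 19220. It was in no list of E2 alone, of PR-deficient cells or of the reChIP. A second R5020 site of PR with the same rank of 86 lay at 128929023 to 128929119, 181 kb downstream, and in no other list.

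At 124 kb downstream (128871394 to 128873124) the sites were of ER lists and of the reChIP, with no site of a PR list. T47D ER was listed with R5020 (rank 326 of 5338, its best at MYC) and with E2+R5020 (rank 3459), but not with E2. All 3 PR-deficient ER lists held it, at rank 437 with E2, 619 with E2+R5020 and 669 with R5020. The last was the best-ranked R5020 site of PR-deficient cells at MYC. The reChIP site there was that list's best at MYC (rank 1175 of 9861). ER was thus called here under R5020 in both lines.

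The next 7 kb held 2 more. At 128 kb (128876008 to 128876315) PR with E2, PR with E2+R5020 and PR-deficient ER with R5020 each had a site at the lowest score kept. At 131 kb (128877699 to 128880525) PR-deficient ER ranked 218 with E2 and 204 with E2+R5020, and T47D cells had sites of the reChIP (best rank 1799), of ER with E2+R5020 (rank 9503) and of PR with E2 (lowest score kept).

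The region 135 kb downstream (128881910 to 128884919) joined ER and PR most fully. T47D ER was listed with E2 (rank 294 of 4014, score 88.98) and E2+R5020 (rank 3459), PR with E2+R5020 (rank 418) and R5020 (best rank 616), the reChIP at rank 3404, and PR-deficient ER with E2 (rank 819). PR-deficient cells had no site there with E2+R5020. With the regions at 65.2 and 131 kb, it was 1 of 3 at MYC that held sites of T47D ER, PR, reChIP and PR-deficient ER. At 131 kb the T47D ER site of E2+R5020 (128879901 to 128880100) and the PR site of E2 (128878485 to 128878760) did not overlap each other.

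Farther out, 5 regions were each in 2 lists. Those at 139 kb (128886976 to 128887453) and 141 kb (128888865 to 128889549) paired PR of E2+R5020 with the reChIP and with T47D ER of R5020. The one at 155 kb (128902902 to 128903285) paired PR of R5020 and of E2+R5020, and that at 171 kb (128919301 to 128919954) PR of E2 and of E2+R5020. At 156 kb (128903722 to 128904683), PR of E2 met PR-deficient ER of E2.

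The leading T47D ER site of E2 at MYC lay 175 kb downstream (128922997 to 128924305), at rank 84 of 4014 with a score of 143.07. ER with E2+R5020 (rank 2609, its best at MYC) and the reChIP (rank 1799) were listed inside it. No PR list and no PR-deficient list held it. The leading sites of E2 at MYC thus lay at different places in the 2 lines, 175 kb away in T47D and 65.2 kb away in PR-deficient cells.

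The other 36 regions at MYC were in 1 list each. Regions with PR sites and no other kind of list numbered 25, counting those shared between PR lists. They included the best-ranked PR site of E2 (rank 455 of 7961), at 128769692 to 128769920, 21.5 kb downstream. Regions of T47D ER alone numbered 8, and 4 were of the reChIP alone. A single region was of PR-deficient ER alone. Of the 11 reChIP regions at MYC, 5 held a T47D ER site, 4 a PR site and 3 both. The shares of regions by kind of list over the whole series were not counted, so these counts are not read as particular to MYC.

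**Figure D4:**
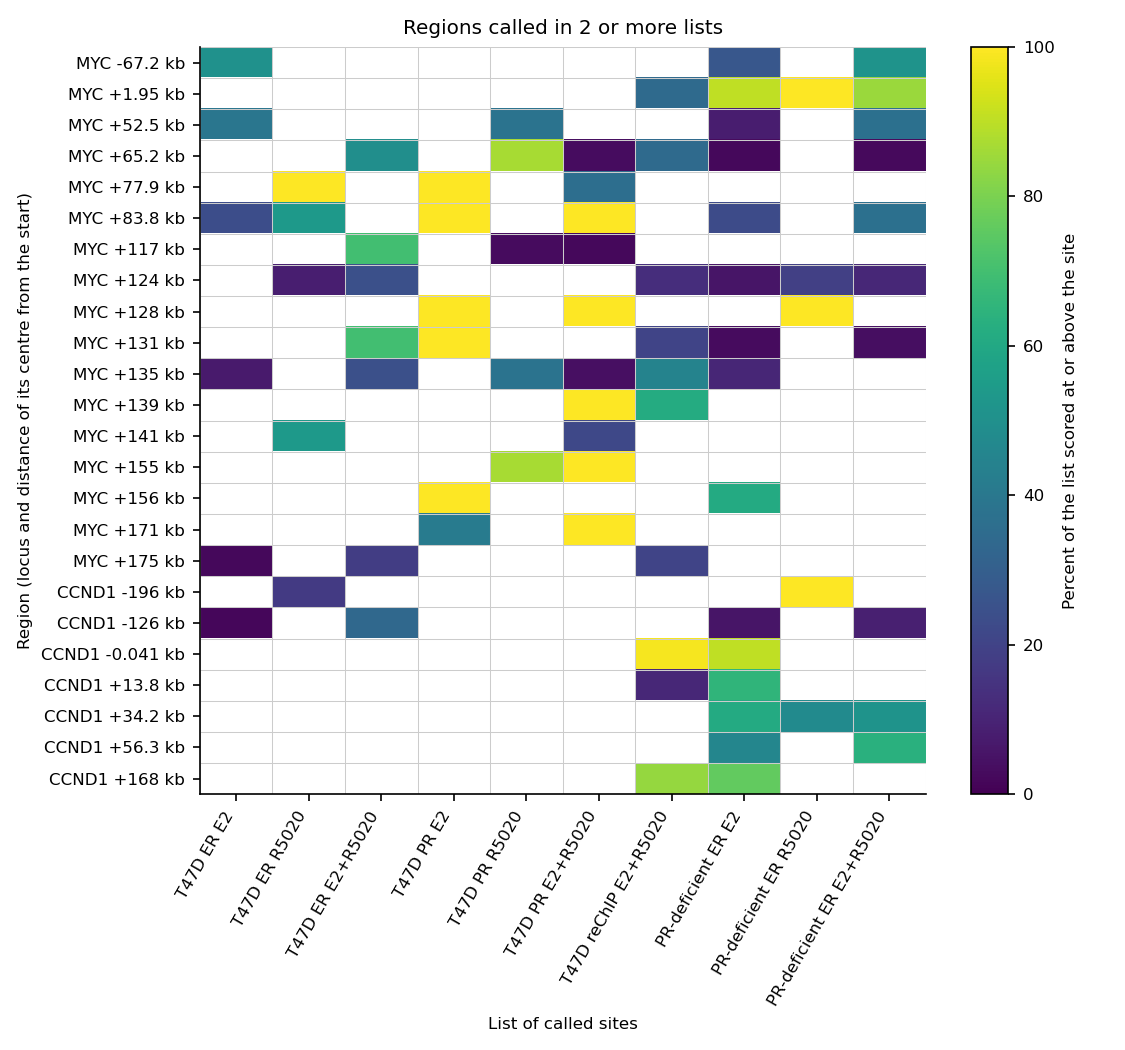
The 24 regions called in 2 or more lists (rows, by locus and distance of the centre from the start) across the 10 lists (columns); colour gives the percent of the list scored at or above the region's best site, dark being high in the list, and white means no site. MYC fills 17 rows and CCND1 7; the regions at MYC +65.2, +83.8, +124 and +135 kb each hold 6 lists.

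CCND1 held 48 sites, with 25 upstream, 6 in the gene span and 17 downstream. The window did not stand out from its surroundings: its 4 bins nearest the start held 19, 7, 15 and 6 sites, against a median of 13 over 60 bins and 33 in the highest bin, 600 to 700 kb downstream. PR-deficient ER gave 22 of the sites, PR 14, the reChIP 7 and T47D ER 5. T47D ER was listed once with E2, once with R5020 and 3 times with E2+R5020. In PR-deficient cells ER was listed 8 times with E2, 10 times with R5020 and 4 times with E2+R5020. Their densities were 7.74, 8.19 and 5.29 times the list means, against 1.86, 1.4 and 1.17 times in T47D cells. Beside the same lists on chromosome 11, the PR-deficient values were 5.01, 3.07 and 3.18 times and the T47D values 1.51, 0.493 and 0.923 times.

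The region that ranked highest at CCND1 was an ER region of estrogen 126 kb upstream, at 69328672 to 69330933. It was the only CCND1 site of T47D ER with E2, at rank 67 of 4014 with a score of 151.8, the best-ranked site of that list at the 3 loci. It was listed again with E2+R5020 in T47D cells (rank 4677 of 19220). In PR-deficient cells it was the leading CCND1 site with E2 (rank 437 of 7742, score 187.06) and with E2+R5020 (rank 485 of 5663, score 98.81). No list of R5020 alone, of PR or of the reChIP overlapped it. The nearest PR sites lay on either side, at 69327768 to 69328077 with E2 and at 69331649 to 69331991 with E2+R5020, both at the lowest score kept.

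The CCND1 start itself was covered by 1 site, of PR-deficient ER with E2 (69454978 to 69456686, rank 6398 of 7742). A reChIP site lay within it, 0.287 kb after the start (rank 8297 of 9861). At the far end of the gene, the region 13.8 kb after the start (69468682 to 69470680) held the same 2 lists, and its reChIP site at 69469095 to 69469746 was the best-ranked of that list at CCND1 (rank 1005, score 147.24). PR-deficient ER with R5020 was listed 1.83 kb before the start (69453771 to 69454320, rank 669 of 9141, its best at CCND1), 3.84 kb before it and 2.65 kb after it. The latter pair had the lowest score kept. T47D lists of ER alone or PR alone had no site in the gene.

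Downstream, the region at 34.2 kb (69489410 to 69490698) was held by all 3 PR-deficient ER lists, at rank 4434 with E2, 1716 with R5020 and 2638 with E2+R5020, and by no T47D list. The region at 56.3 kb (69511524 to 69512762) was held by PR-deficient ER with E2 (rank 3369) and E2+R5020 (rank 3230). At 168 kb (69623322 to 69624393) PR-deficient ER of E2 met the reChIP. The last shared region lay 196 kb upstream (69259483 to 69259850), where ER was listed with R5020 in T47D (rank 608 of 5338) and in PR-deficient cells (lowest score kept). In all, 7 of 37 CCND1 regions (18.9%) lay in 2 or more lists, near the 19.6% of the whole series, and none in more than 4.

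PR sites at CCND1 overlapped no site of another list. The share of all PR sites without such an overlap was not counted, so this is not read as particular to CCND1. The 7 sites of PR with E2 all had the lowest score kept, and none was left when that score was raised by 1 step. That rise left 3301 of the 7961 sites of the list, and 7411 of 11908 for PR with E2+R5020. Of the 5 with E2+R5020, 1 was left, at 69351950 to 69352336, 104 kb upstream (rank 1696 of 11908). Both R5020 sites were left (rank 2428 of 6358), 18.5 and 204 kb downstream. By the same rise, PR-deficient ER with R5020 went from 10 to 4 sites, while its whole list went from 9141 to 4377. CCND1 as a whole went from 116 to 67.7 sites per Mb.

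BCL2, the widest window, held 8 sites of 4 lists, and no 2 of them overlapped. T47D ER with E2+R5020 gave 4, where 82.5% of windows of that width held a site. They lay 150 and 131 kb upstream (both at rank 6521 of 19220), and 121 kb and 245 kb after the start (both at rank 9503). T47D ER with E2 gave 1 (background 33.9%), at 60892684 to 60893523 inside the gene and 93.5 kb after the start, at rank 2419 of 4014. This was the site nearest the start in any list. PR with E2+R5020 gave 1 (background 48.9%), 311 kb after the start at the lowest score kept. The reChIP gave 2 (background 49.2%), at 246 and 256 kb after the start, with a best rank of 4399 of 9861.

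The other 6 lists had no BCL2 site: T47D ER with R5020 (background 30.1%), PR with E2 (44.9%) and R5020 (34.8%), and PR-deficient ER with E2 (45.1%), R5020 (38.2%) and E2+R5020 (38.2%). Taking 3 sites of the list's total as the limit that a count of 0 allows, the share at BCL2 could be up to 0.0328% to 0.0562% in these lists. Chromosome 18 was thinly covered in general, with 19 to 306 sites per list, and 38 of the 60 bins around BCL2 were empty. Both BCL2 sites in the gene span were of T47D ER, and none of the 8 ranked in the top 10% of its list.

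Sharing between lists was also counted for 6 pairs over the 3 loci, beside the share of the whole list. Of the 7 T47D ER sites of E2, 5 (71.4%, exact 95% interval 29 to 96.3) were listed in PR-deficient cells with E2, against 54.9% of the whole list. With centres within 200 bp in place of any overlap, this share was 14.3%. Of the same 7, 3 (42.9%, 9.9 to 81.6) were listed with E2+R5020, against 19.5%. For the 13 ER sites of R5020, 1 (7.69%, 0.195 to 36) was listed with E2+R5020, against 17.7%. Of the 14 ER sites of E2+R5020, 3 (21.4%, 4.66 to 50.8) met a PR site of E2+R5020, against 5.16%, and 4 (28.6%, 8.39 to 58.1) met a PR-deficient ER site of E2+R5020, against 4.77%. The last share was 14.3% with centres within 200 bp and 7.14% with an overlap of 50% of both sites. Of the 23 reChIP sites, 5 (21.7%, 7.46 to 43.7) met a T47D ER site of E2+R5020, against 19.5%. The intervals cover counting error only. Sites of 1 library at 1 locus are not independent, so no difference from the whole list is drawn from these shares. The 3 ER sites that met a PR site and the 5 reChIP sites that met an ER site were all at MYC.

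Over the 3 loci, 24 of 98 regions (24.5%) lay in 2 or more lists. This count was 17 with the lowest score kept raised by 1 step and 15 without the 5 lists rich in lowest-scoring sites.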

How the data were processed

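ER and PR ChIP-seq sites of 10 libraries were used, with 1 library in each of 26 groups taken from the sample titles. The other 16 groups (vehicle, IgG and input) were not analysed here as lists. The submitters' processing notes name Bowtie2, MACS and hg19 (versions and settings not given in the sources used here). The authors subtracted vehicle libraries (and IgG for the reChIP), per the labels. Each deposited list gives chromosome, start, end, length in bp and the authors' score, of a unit the sources used here do not name. Positions count from 1.

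Counts, densities, ranks and overlaps (at least 1 bp) used SciPy 1.17.1, pandas 2.3.3 and NumPy 2.4.6 under Python 3.11.15, and plots matplotlib 3.10.9. The overlap steps were tested on simulated lists. Chromosome length was the highest site end in any list. Distances run from the transcription start to a site's centre, with MYC and CCND1 on the plus and BCL2 on the minus strand. Neighbouring genes were taken by order from RefSeq (GRCh38.p14), with no coordinate of that build. The text names every region in 2 or more lists, the site nearest each start, and the best-ranked site of each list at each locus; where the latter tie, not all are given. The members and lists were chosen with earlier results of these data known. Counts for other cell cycle and survival genes were not made because no hg19 annotation was used here. Alternatives were windows of 100 and 500 kb, the higher-scoring 50% of each list, the lowest score raised by 1 step, an overlap of 50% of both sites, centres within 200 bp and joining within 500 bp. In the higher-scoring 50%, tied scores at the cut were split by their order in the list. Leaving out the 5 lists with over 60% of sites within 1 step of the lowest score was added after seeing the data.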

Additional observations from a re-analysis of the deposited data

Results flagged for a closer look

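The number of ER sites moved in opposite directions in the 2 lines under the same change of hormone; with 1 library in each group, these differences were not tested. Adding R5020 to E2 changed the MYC count by 2 in T47D cells (5 to 7) and by -3 in PR-deficient cells (10 to 7). The same change at CCND1 was 2 in T47D cells (1 to 3) and -4 in PR-deficient cells (8 to 4). Giving R5020 in place of E2 changed the MYC count by 7 in T47D cells (5 to 12) and by -6 in PR-deficient cells (10 to 4). Adding E2 to R5020 changed it by -5 (12 to 7) and 3 (4 to 7). At CCND1 that change was 2 (1 to 3) and -6 (10 to 4). The whole lists moved as well, from 4014 (E2) and 5338 (R5020) to 19220 sites (both) in T47D cells and from 7742 and 9141 to 5663 in PR-deficient cells. As a multiple of the list's mean density, adding R5020 to E2 moved the MYC value down in both lines (9.51 to 2.78 in T47D, 9.86 to 9.44 in PR-deficient cells), and likewise at CCND1 (1.86 to 1.17, and 7.74 to 5.29). Adding E2 to R5020 moved the CCND1 multiple down in both as well (1.4 to 1.17, and 8.19 to 5.29). Against chromosome 11 alone, the same change moved the CCND1 multiple up in both (0.493 to 0.923, and 3.07 to 3.18). The other 2 contrasts, both at MYC, stayed opposite as a multiple of the density over all chromosomes. R5020 in place of E2 gave 9.51 to 17.2 in T47D and 9.86 to 3.34 in PR-deficient cells. Adding E2 to R5020 gave 17.2 to 2.78 and 3.34 to 9.44. Against chromosome 8 alone, R5020 in place of E2 lowered the multiple in both lines (11.7 to 10.9, and 11.6 to 5.07). The change on adding E2 to R5020 stayed opposite there (10.9 to 2.81, and 5.07 to 11). Weak sites carried part of the counts. Among the higher-scoring 50% of each list, none of the 5 contrasts was opposite in the 2 lines, but this rests on tied scores. Tied scores at the cut were split by order in the list. T47D ER sites of R5020 at MYC with rank 1560 were left out, though other sites of that score were kept. No direction is therefore drawn from the counts under this setting. As cut, R5020 in place of E2 lowered the MYC count in both lines (4 to 2, and 8 to 1). Adding R5020 to E2 left the CCND1 count as it was (1 and 1 in T47D, 2 and 2 in PR-deficient cells). Adding R5020 to E2 left the MYC count at 4 in T47D cells, adding E2 to R5020 raised it in both lines (2 to 4, and 1 to 5), and the latter left the CCND1 count at 1 in T47D cells. With the lowest score raised by 1 step, adding E2 to R5020 left the T47D count at MYC at 7. The other contrasts stayed opposite under that rise. R5020 in place of E2 took the MYC count from 5 to 7 in T47D and from 10 to 1 in PR-deficient cells. Adding R5020 to E2 took it from 5 to 7 and from 10 to 7. At CCND1, adding R5020 to E2 gave 1 to 3 and 6 to 3, and adding E2 to R5020 gave 1 to 3 and 4 to 3.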

How the results depend on the processing

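No paired analysis was possible because no group has more than 1 library. The higher-scoring 50% of each list holds fewer sites by construction and gave 121 sites per Mb at MYC, 43.5 at CCND1 and 3.36 at BCL2, with 10 regions in 2 or more lists. Tied scores at that cut were split by order in the list, which did not treat the loci alike. PR sites of R5020 at rank 2428 were kept at CCND1 and left out at MYC. These values therefore depend in part on that order. Windows of 500 kb gave 171 per Mb at MYC, and the lowest score raised by 1 step gave 67.7 at CCND1. Without the 5 lists with over 60% of sites within 1 step of the lowest score, MYC held 106 and CCND1 55.6 per Mb, and 15 regions lay in 2 or more lists. MYC stayed above CCND1, and CCND1 above BCL2, under each of these settings. With centres within 200 bp, 14.3% of T47D ER sites of E2 were found in PR-deficient cells with E2. With an overlap of 50% of both sites, 0% of them were found with E2+R5020, and 7.14% of T47D ER sites of both hormones were found in PR-deficient cells with both; the paired lists differ in median width (1171, 209 and 1329 bp). The cause of the other changes was not tested. Depth is unknown and vehicle libraries were subtracted. An absent site may therefore be one that fell below a list's threshold or one that was also present with vehicle.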

Other observations

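Sites continued beyond the window downstream of MYC. From 200 to 500 kb after the start the 10 lists held 59 sites, of which 32 were of PR, 14 of T47D ER, 7 of PR-deficient ER and 6 of the reChIP. From 500 to 1000 kb they held 18. On the other side, the 500 kb before the start held 20 sites, against 152 in the 500 kb after it. Around CCND1 the corresponding numbers were 71 before and 66 after the start, and around BCL2 they were 3 and 6.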
